A study of Mus musculus with 12 samples.

Results

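The mitochondrial solute carriers of the Slc25 family were followed in RNA of the mouse medial prefrontal cortex (mPFC). Members were the protein-coding genes of the deposited expression table whose symbol is Slc25a and a number in the GENCODE M21 annotation, which gave 41 of the 17283 genes of the table. The annotation lists 47 such genes, and Slc25a2, Slc25a31, Slc25a41, Slc25a43, Slc25a48 and Slc25a54 were not analysed here. Of the 41 members, 39 passed the filter on low values (FPKM of at least 1 in at least 3 of the 12 libraries), and Slc25a13 and Slc25a21 did not. FPKM relates the fragments of a gene to its length in kilobases and to the size of its library.

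The carriers are small proteins of the inner mitochondrial membrane, made in the cytosol and imported. Each exchanges or carries a particular solute, such as ADP and ATP, phosphate, an amino acid, a dicarboxylate or a cofactor, between the cytosol and the mitochondrial matrix. In the brain, the aspartate/glutamate and glutamate carriers link mitochondrial metabolism with glutamate handling and with the transfer of reducing equivalents, and the adenine nucleotide carriers export the ATP made by oxidative phosphorylation.

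The study asked how astragaloside IV (ASIV), a plant saponin from Astragalus, acts on neurotransmission in BTBR mice, which serve in autism research. C57 mice, whose genotype label is WT, and BTBR mice, labelled as an inbred strain, received intraperitoneal injections of ASIV or of the DMSO solvent for 7 days. This gave 4 groups of 3 libraries, called here C57 vehicle, C57 ASIV, BTBR vehicle and BTBR ASIV. The labels name no dose, age or sex, and no label says whether the 3 libraries of a group came from different animals, so the p-values measure the spread between these libraries, which may be technical. BTBR and C57 differ at many loci, so a strain difference cannot be assigned to any one of them.

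The libraries held 16166328 to 18660038 fragments, as recovered from the steps of the low values. Markers of neurons, astrocytes, oligodendrocytes, microglia and endothelial cells were present in all libraries. None of the marker genes found in the table was at 0 in every library, although the filter of that table is not given. The mRNAs encoded by the mitochondrial genome made up 4.39 to 4.67% of fragments in C57 vehicle, 3.02 to 4.54% in C57 ASIV, 0.328 to 0.641% in BTBR vehicle and 3.00 to 3.22% in the BTBR ASIV libraries. All 13 of these mRNAs were called lower in BTBR vehicle than in C57 vehicle (median log2 difference -4.38) and higher in BTBR ASIV than in BTBR vehicle (median 3.72). Whether the carrier differences described here depend on that difference in mitochondrial RNA was not tested, except through the rescaling described with the counts.

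Single library values of the carriers ran from 0.0254 FPKM for Slc25a21 to 432.3 FPKM for Slc25a4, so a few members held most of the RNA. Slc25a4, the adenine nucleotide translocase typical of heart, muscle and brain, had the highest mean in each of the 4 groups. Slc25a5, the second adenine nucleotide translocase, Slc25a23, a calcium-regulated carrier of ATP-Mg and phosphate, and Slc25a3, the phosphate carrier, followed in C57 vehicle, C57 ASIV and BTBR ASIV. In BTBR vehicle the order after Slc25a4 was Slc25a3, Slc25a11, Slc25a23 and Slc25a5. Slc25a11 is the oxoglutarate/malate carrier, and it stood next to the glutamate carriers Slc25a18 and Slc25a22 in the other groups. At the other end, Slc25a21, the oxodicarboxylate carrier, rested on 2 to 16 fragments in a library.

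**Figure D1:**
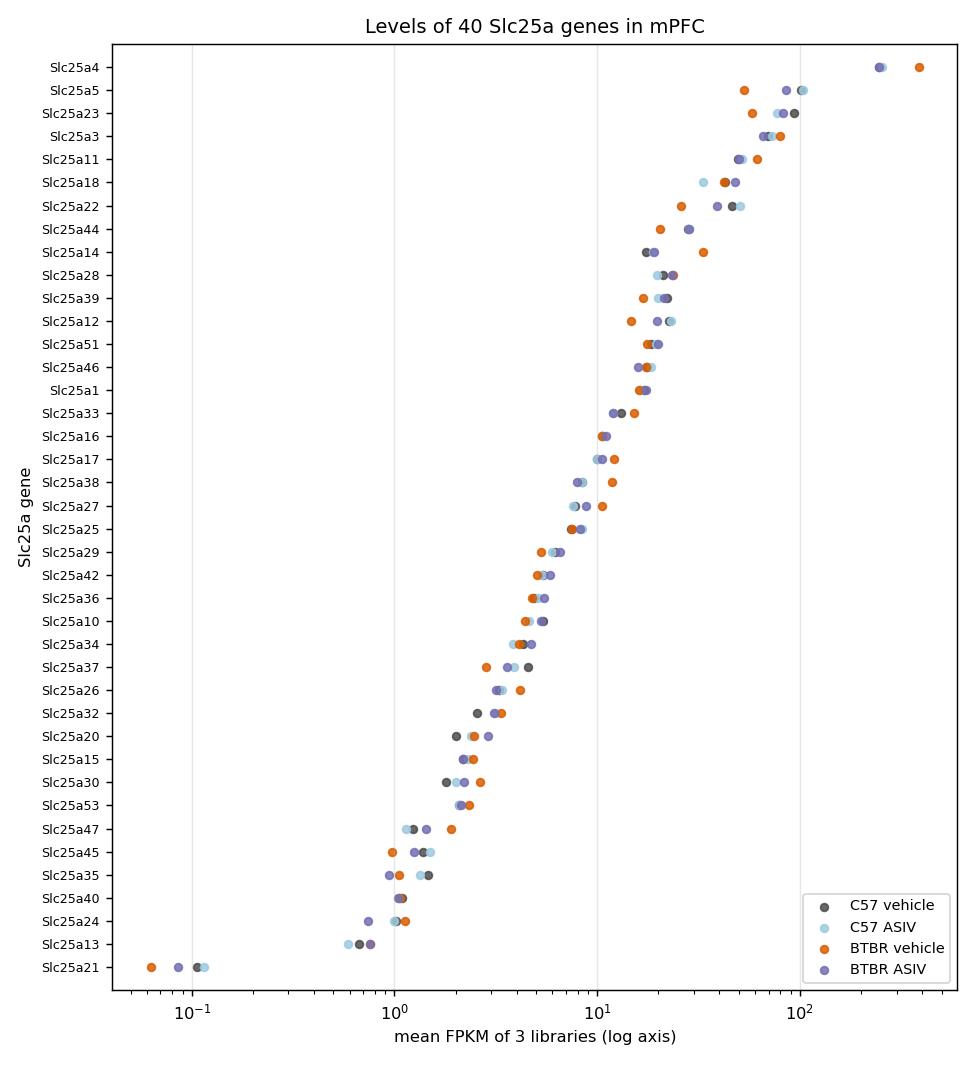
Mean level of each of 40 Slc25a genes (points, mean of 3 libraries, FPKM on a log axis) in the 4 groups, with genes ordered by their mean over all 12 libraries. Slc25a4 lies at the top in every group, and the BTBR vehicle point stands to the right of the other groups for Slc25a4 and Slc25a14 and to the left for Slc25a5, Slc25a22 and Slc25a12.

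Summed over the 41 genes, carrier RNA was 928.7 ± 3.50 FPKM in C57 vehicle, 925.3 ± 57.4 in C57 ASIV, 998.1 ± 44.9 in BTBR vehicle, and 902.9 ± 14.3 with ASIV in BTBR (SD, n = 3). The BTBR vehicle libraries ran from 956.4 to 1046 FPKM, above the 3 C57 vehicle libraries and the 3 BTBR ASIV libraries but overlapping the C57 ASIV libraries, which reached 991.4. The amino acid carriers made up 16.65 to 17.3% of the sum in C57 vehicle, 16.3 to 16.74% in C57 ASIV, 11.23 to 13.01% in BTBR vehicle, and 15.38 to 17.7% with ASIV in BTBR, so the 3 BTBR vehicle libraries lay below all others. The uncoupling protein-like carriers made up 4.449 to 4.784% in BTBR vehicle and at most 3.634% in any other library. These shares are given as descriptions of the libraries, without a test.

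**Figure D2:**
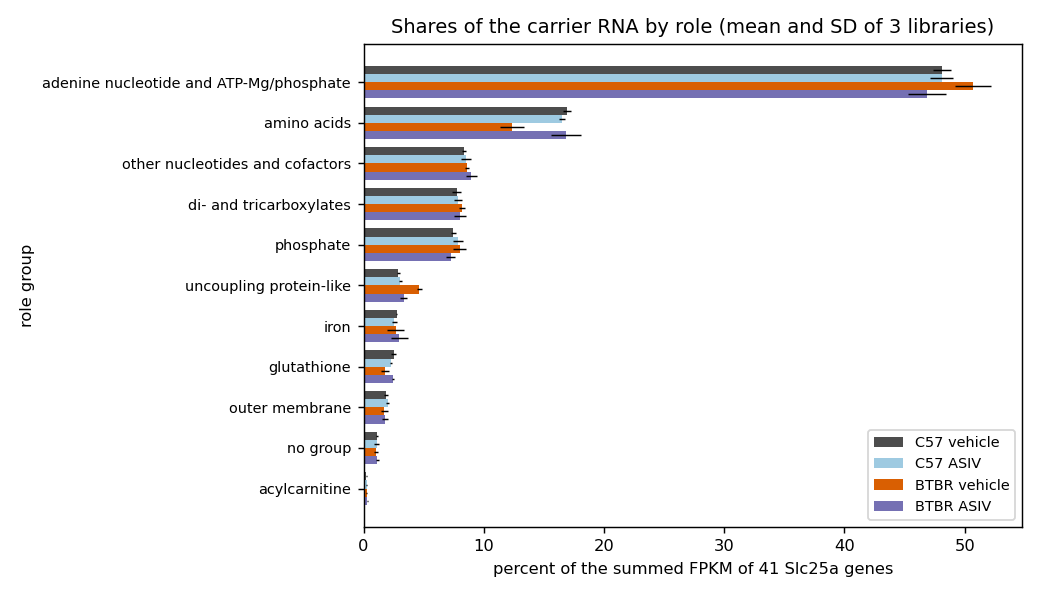
Share of the summed FPKM of the 41 Slc25a genes (percent, x axis) taken by each group of carriers by role (y axis), as bars of the mean with the SD of 3 libraries. The amino acid share was 12.4% in BTBR vehicle against 16.9% in C57 vehicle, and the uncoupling protein-like share was 4.65% against 2.90%.

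With both strains on vehicle, the family split in both directions. The adenine nucleotide translocase Slc25a4 and the uncoupling protein-like carrier Slc25a14 rose in BTBR, while the translocase Slc25a5, the glutamate carrier Slc25a22, the aspartate/glutamate carrier Slc25a12 and the ATP-Mg/phosphate carrier Slc25a23 fell. In all, 16 of 39 tested members were called (limma on log2(FPKM + 1), adjusted p under 0.05 over all genes tested), 9 higher and 7 lower in BTBR. That is 41.03% of members, close to the 43.1% called among all 13586 genes tested (22.3% higher and 20.8% lower), so the number of calls was near the background. The median log2 difference of the members was -0.00, against 0.01 for all genes, and the median of the absolute differences was 0.25 against 0.29. The groups did not overlap in 18 members, the 16 called among them, where 53.3% of all genes tested had groups that did not overlap.

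In BTBR mice, 14 of 39 members were called between ASIV and vehicle, 6 higher and 8 lower under ASIV. Among them, Slc25a5, Slc25a22, Slc25a23, Slc25a44, Slc25a12 and Slc25a39 rose, and Slc25a14, Slc25a4, Slc25a38, Slc25a33, Slc25a26, Slc25a11 and Slc25a3 fell. The share of members called was 35.9%, against 29.1% of all genes tested (13.7% higher and 15.4% lower), and the groups did not overlap in 20 members, against 39.1% of all genes. This comparison uses the same 3 BTBR vehicle libraries as the strain comparison under vehicle, so a high or low reading in them enters both with opposite sign, and the values of both comparisons are given side by side. The count was 8 when the fit held only the 6 libraries compared and 9 without BTBR ASIV replicate 2.

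**Figure D3:**
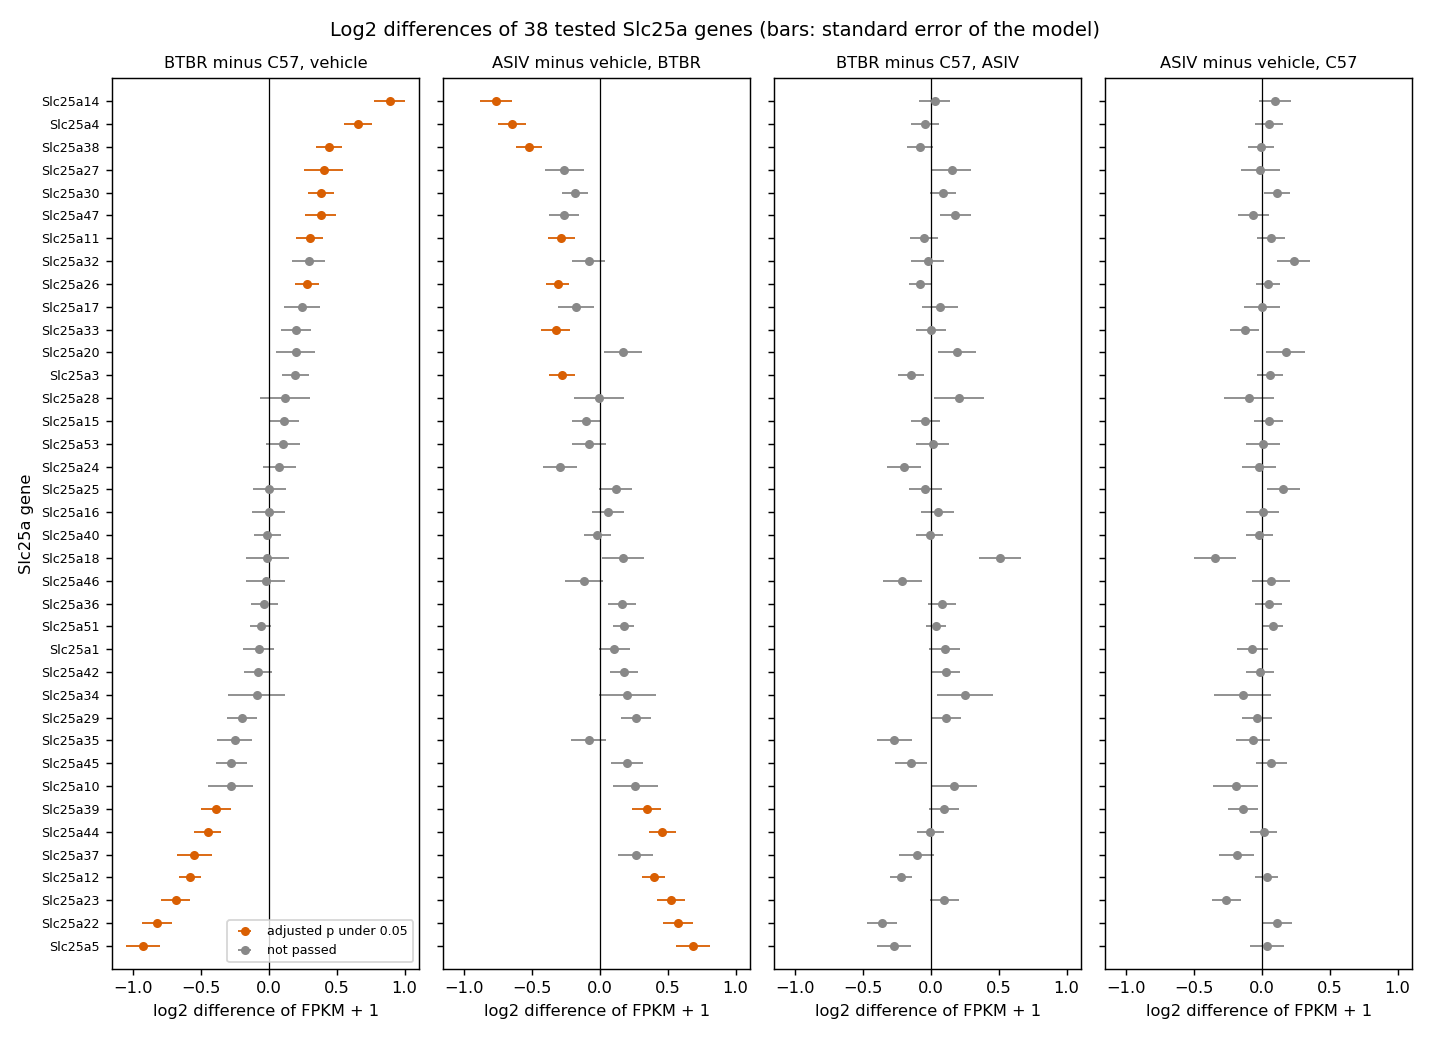
Log2 differences of FPKM + 1 (x axis, with the standard error of the model) for 38 tested Slc25a genes (y axis, ordered by the strain difference under vehicle) in 4 comparisons, with genes at an adjusted p under 0.05 in orange. Slc25a14 and Slc25a4 lead the higher end under vehicle and Slc25a5 and Slc25a22 the lower end, and no gene is orange in the comparison of strains under ASIV or of ASIV in C57.

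The split into higher and lower members depended on how libraries were scaled. The mRNAs of the mitochondrial genome made up 12.1 to 13.2% of the summed FPKM in C57 vehicle and 9.25 to 12.5% in C57 ASIV. They made up 1.07 to 2.03% in BTBR vehicle and 8.84 to 9.57% in BTBR ASIV. These shares exceed those of fragments. Each library was rescaled to its total FPKM, not its fragments, without the genes of the mitochondrial genome. The median of all genes tested then shifted by -0.107 between the strains under vehicle and by 0.121 between ASIV and vehicle in BTBR. The members then split into 5 higher and 9 lower between the strains, with Slc25a11 (log2 difference 0.165), Slc25a27 (0.28), Slc25a26 (0.169) and Slc25a47 (0.294) no longer called and Slc25a29 and Slc25a45 called lower. Under ASIV in BTBR they split into 8 higher and 3 lower, with members such as Slc25a3 (-0.128), Slc25a11 (-0.132), Slc25a33 (-0.181) and Slc25a26 (-0.19) no longer called and Slc25a29 and Slc25a51 called higher. Quantile normalization gave 7 higher and 5 lower there. Slc25a4, Slc25a14 and Slc25a38 in one direction, and Slc25a5, Slc25a22, Slc25a23, Slc25a12, Slc25a44 and Slc25a39 in the other, were called in both comparisons under each scaling run (TPM, median ratio, quantile and without mitochondrial genes).

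The adenine nucleotide translocases exchange cytosolic ADP for matrix ATP, and the RNA of the pair moved in opposite directions. Slc25a4 (chr8:46206797-46211284, - strand, mm10) read 245, 245 and 242 FPKM in C57 vehicle and 242, 238 and 282 in C57 ASIV. The BTBR libraries read 354, 432 and 375 FPKM with vehicle and 230.2, 252 and 255 with ASIV. The 3 BTBR vehicle libraries lay above the other 9, which overlapped among themselves. The strain difference under vehicle was 0.66 ± 0.10 (SE), adjusted p = 0.000352 on the log2 scale, a ratio of group means of 1.58. The difference of ASIV from vehicle in BTBR was -0.65 ± 0.10 (SE), adjusted p = 0.000804, and it was -0.404 after quantile normalization.

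Slc25a5 (chrX:36795651-36798807, + strand) read 104, 103 and 95.97 FPKM in C57 vehicle and 91.1, 102 and 119.7 in C57 ASIV. Its BTBR levels were 57.7, 57.4 and 44.04 FPKM with vehicle and 78.99, 91.7 and 86.1 with ASIV. The BTBR vehicle libraries lay below the other 9, and the BTBR ASIV libraries stayed below the C57 vehicle ones. The log2 difference between the strains under vehicle was -0.93 ± 0.13 (SE), adjusted p = 0.000132, and the BTBR mean was 0.525 of the C57 mean. In BTBR, ASIV libraries were higher than vehicle libraries by a log2 difference of 0.69 ± 0.13 (SE), adjusted p = 0.00184.

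The ratio of the pair within a library does not depend on any scaling by 1 factor per library, although quantile normalization can change it. The ratio of Slc25a4 to Slc25a5 was 6.13, 7.53 and 8.51 in the BTBR vehicle libraries, and it ran from 2.35 to 2.96 in the other 9. Group means were 2.42 ± 0.0932 in C57 vehicle, 2.45 ± 0.175 in C57 ASIV, 7.39 ± 1.19 in BTBR vehicle, and 2.88 ± 0.109 with ASIV in BTBR (SD, n = 3). In an exact two-sided permutation test, the strains under vehicle (log2 difference 1.60) and ASIV against vehicle in BTBR (log2 difference -1.35) both gave p = 0.1, the smallest p that 3 against 3 libraries allow. The strains under ASIV (log2 difference 0.23) gave that p too, with the BTBR ASIV libraries (2.91, 2.75 and 2.96) above both C57 groups (2.35 to 2.66). Other carrier pairs also reached it, so it is not particular to these comparisons. Adjusted over the 32 tests of 8 carrier pairs in 4 comparisons by Benjamini-Hochberg, that exact p became 0.213.

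Fragments of the translocases can be told apart, which the coding sequences show. Both coding sequences are 894 bases long and 77.4% identical, with no identical run over 20 bases (GENCODE M21). Their first 90 bases are shown because the mismatches are spread along the sequence. Capitals mark the 24 bases that differ.
Slc25a4: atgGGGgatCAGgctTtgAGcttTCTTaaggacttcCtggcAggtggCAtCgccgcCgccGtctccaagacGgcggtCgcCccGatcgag
Slc25a5: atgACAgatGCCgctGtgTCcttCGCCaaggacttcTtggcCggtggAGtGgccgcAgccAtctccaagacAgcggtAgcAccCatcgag
None of the 50-base windows of Slc25a4 transcripts occurred in a transcript of another gene, while 33.8% of those of Slc25a5 did, all in 9 pseudogenes. The pseudogene Gm5529, which shares 16.2% of the windows, was the only one of the 9 in the table and read between 0.417 and 1.63 FPKM. It read 0.417 to 0.657 FPKM in BTBR vehicle, below the 3 other groups, as Slc25a5 did. How the authors counted fragments that fit several genes is not given in the sources used here, so the level of Slc25a5 is uncertain by the share such fragments hold.

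**Figure D4:**
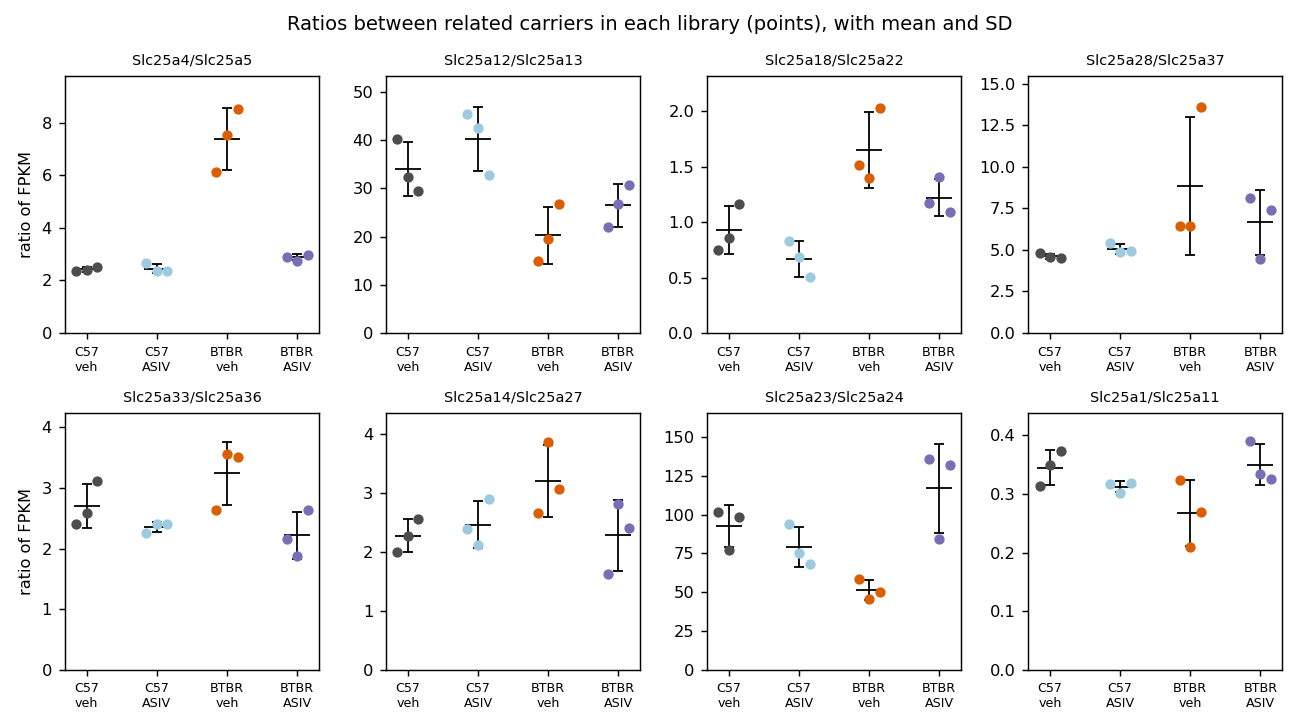
Ratio of FPKM within each library (points) for 8 pairs of related carriers, with the mean and SD of 3 libraries per group. The Slc25a4/Slc25a5 ratio lies between 6.13 and 8.51 in BTBR vehicle and between 2.35 and 2.96 in the other 9 libraries, and the Slc25a23/Slc25a24 ratio lies lowest in BTBR vehicle.

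The calcium-regulated carriers exchange ATP-Mg for phosphate and set the size of the adenine nucleotide pool of the matrix. Slc25a23 (chr17:57043711-57059863, - strand) read 87.5, 95.9 and 95.7 FPKM in C57 vehicle and 77.03, 80.1 and 74.9 in C57 ASIV. BTBR levels were 58.4, 48.9 and 66.2 FPKM with vehicle and 81.9, 79.9 and 87.04 with ASIV. BTBR vehicle lay below the other 9 libraries, and C57 ASIV lay below C57 vehicle without overlap. Slc25a23 fell in BTBR under vehicle (log2 difference -0.69 ± 0.11 (SE), adjusted p = 0.000314) and rose with ASIV in BTBR (log2 difference 0.52 ± 0.11 (SE), adjusted p = 0.00327). In C57 its log2 difference between ASIV and vehicle was -0.26 ± 0.11 (SE), adjusted p = 1, which did not pass. The other carriers of this kind, Slc25a24 and Slc25a25, passed in neither comparison, with log2 differences of 0.08 and 0.00 between the strains and -0.30 and 0.12 with ASIV in BTBR. Slc25a24 was scarce, at 1.13 FPKM in BTBR vehicle against 57.8 for Slc25a23.

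Slc25a3 (chr10:91116574-91124059, - strand) brings the phosphate used by ATP synthase into the matrix. It read 70.9, 69.8 and 67.7 FPKM in C57 vehicle and 74.1, 67.3 and 76.04 in C57 ASIV. With vehicle the BTBR libraries read 73.5, 90.1 and 76.2 FPKM, and with ASIV they read 60.6, 68.1 and 67.5. BTBR vehicle lay above C57 vehicle and above BTBR ASIV without overlap, but the strain difference of 0.19 did not pass (adjusted p = 0.126). The fall with ASIV in BTBR was called (log2 difference -0.28 ± 0.10 (SE), adjusted p = 0.0461). That call was lost in 16 of 23 alternative settings, among them the omission of any 1 library other than BTBR vehicle replicate 1 and C57 ASIV replicate 3 (log2 difference -0.193 to -0.313, adjusted p = 0.0536 to 0.148).

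Among the amino acid carriers, the strain comparison under vehicle called 4 of 7 tested members, with 1 up and 3 down in BTBR, where 43.1% of all genes tested were called. Slc25a22 (chr7:141429744-141437892, - strand), which carries glutamate with a proton into the matrix, read 50.2, 45.9 and 43.4 FPKM in C57 vehicle and 44.5, 48.7 and 58.2 in C57 ASIV. In BTBR it read 27.9, 25.3 and 24.2 FPKM with vehicle and 41.3, 38.9 and 36.5 with ASIV. The BTBR vehicle libraries were the lowest, and the BTBR ASIV libraries lay between them and all 6 C57 libraries. Slc25a22 fell to 0.555 of the C57 mean (log2 difference -0.83 ± 0.11 (SE), adjusted p = 0.000104) and was 1.51 times its vehicle mean with ASIV in BTBR (log2 difference 0.57 ± 0.11 (SE), adjusted p = 0.00217).

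Slc25a12 (chr2:71271063-71367749, - strand), the aspartate/glutamate carrier of the malate/aspartate shuttle in neurons, showed the same order of groups. It read 23.3, 23.3 and 20.9 FPKM in C57 vehicle and 21.4, 23.2 and 24.6 in C57 ASIV. The BTBR libraries read 14.1, 14.3 and 15.7 FPKM with vehicle and 19.7, 19.5 and 19.7 with ASIV. As for Slc25a22, BTBR ASIV lay above BTBR vehicle and below both C57 groups. The log2 difference was -0.58 ± 0.08 (SE), adjusted p = 0.000192 between the strains under vehicle and 0.39 ± 0.08 (SE), adjusted p = 0.00413 for ASIV in BTBR. Its relative Slc25a13, which serves the same exchange in liver, was under the filter at 0.671, 0.59, 0.757 and 0.756 FPKM in C57 vehicle, C57 ASIV, BTBR vehicle and BTBR ASIV.

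Slc25a44 (chr3:88410498-88425139, - strand), a carrier of branched-chain amino acids, read 28.2, 27.8 and 28.6 FPKM in C57 vehicle and 25.9, 28.2 and 31.4 in C57 ASIV. Its BTBR levels were 20.4, 22.1 and 18.6 FPKM with vehicle and 30.3, 29.5 and 25.4 with ASIV. BTBR vehicle lay below the other 9 libraries. Slc25a44 fell between the strains under vehicle (log2 difference -0.45 ± 0.10 (SE), adjusted p = 0.00323) and rose with ASIV in BTBR (log2 difference 0.46 ± 0.10 (SE), adjusted p = 0.00485).

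Slc25a38 (chr9:120110374-120124504, + strand), a glycine carrier needed for heme synthesis, was the amino acid carrier that went the other way. It read 8.35, 8.39 and 8.51 FPKM in C57 vehicle and 8.67, 8.59 and 7.92 in C57 ASIV. BTBR levels were 10.7, 12.02 and 12.7 FPKM with vehicle and 7.47, 7.18 and 9.07 with ASIV. All 3 BTBR vehicle libraries lay above the other 9 libraries, and its log2 difference was 0.44 ± 0.10 (SE), adjusted p = 0.0031 between the strains under vehicle. With ASIV in BTBR it was -0.53 ± 0.10 (SE), adjusted p = 0.00182. The members that passed in neither comparison were Slc25a18, Slc25a29, a carrier of basic amino acids, and Slc25a15, the ornithine carrier. Slc25a18, the glutamate carrier found mainly in astrocytes, kept a mean of 42.5 FPKM in C57 vehicle, against 42.2 in BTBR vehicle (log2 difference -0.01). The ratio of Slc25a18 to Slc25a22 was 0.751, 0.859 and 1.16 in C57 vehicle and 1.51, 1.4 and 2.03 in BTBR vehicle, groups that did not overlap (exact permutation p = 0.1, adjusted 0.213). It was 0.827, 0.684 and 0.501 in C57 ASIV and 1.17, 1.41 and 1.09 in BTBR ASIV, which did not overlap either (exact permutation p = 0.1, adjusted 0.213). The log2 difference of the ratio between the strains was 0.839 under vehicle and 0.888 under ASIV. The astrocyte markers summed to 683.6 to 799.2 FPKM in C57 vehicle, 572.1 to 659.3 in C57 ASIV, 505.5 to 676.6 in BTBR vehicle, and 688.3 to 756 with ASIV in BTBR, with 1 of 7 called higher and 2 lower between the strains under vehicle. Of the excitatory neuron markers, 3 of 4 were called lower and none higher, and they summed to 949.9 to 1035 FPKM in C57 vehicle, 825.2 to 854.5 in C57 ASIV, 703.3 to 816.2 in BTBR vehicle, and 839.2 to 890.6 with ASIV in BTBR. Of the general neuron markers, 2 of 6 were called lower and none higher, and they summed to 775.4 to 875.7 FPKM in C57 vehicle, 720.5 to 970.4 in C57 ASIV, 510.7 to 705.2 in BTBR vehicle, and 534.7 to 651.5 with ASIV in BTBR. Of the inhibitory neuron markers, 2 of 5 were called higher and 1 lower. They summed to 415.2 to 483.3 FPKM in C57 vehicle, 487.4 to 627.9 in C57 ASIV, 984.7 to 1016 in BTBR vehicle and 478.5 to 577.7 in BTBR ASIV. Sst (log2 difference 1.43) and Pvalb (1.47), which mark subtypes, were the called higher genes and carried that sum, while Slc32a1 (-0.889) was called lower and Gad1 (-0.109) and Gad2 (0.182) did not pass. Among all genes tested, 22.3% were called higher and 20.8% lower between the strains under vehicle. With scaling that left out the mitochondrial genes, 4 of 6 general neuron markers and 3 of 7 astrocyte markers were called lower. That scaling called 42.1% of all genes tested, and 35.5% of the called genes were higher. After quantile normalization, 3 of 6 general neuron markers were called lower. The part of the cell markers in the carrier differences was not tested, and in bulk tissue fewer cells of a type and less RNA per cell cannot be told apart.

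**Figure D5:**
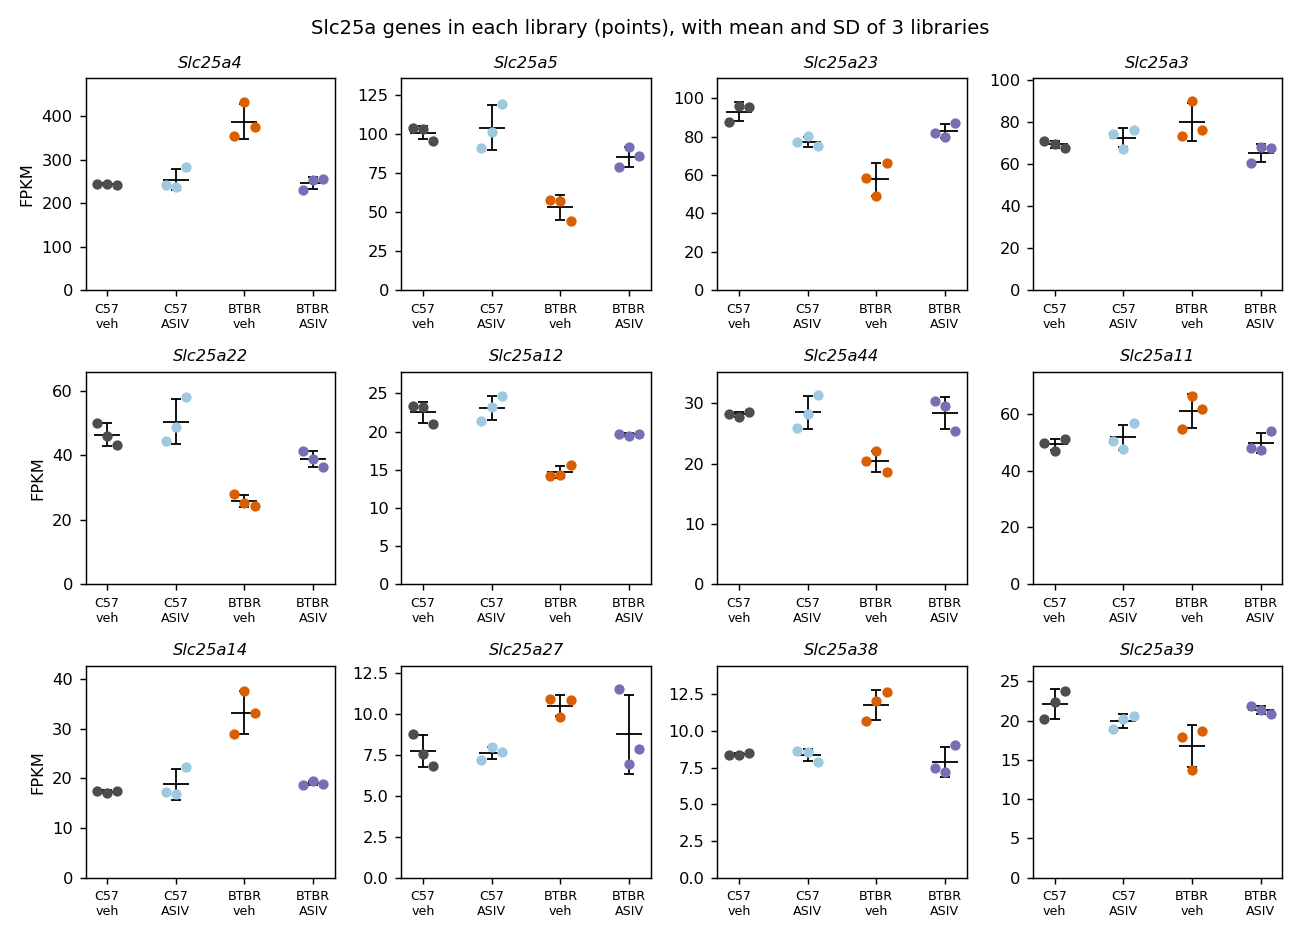
FPKM in each library (points) with the mean and SD of 3 libraries for 12 Slc25a genes, in C57 vehicle, C57 ASIV, BTBR vehicle and BTBR ASIV. The 3 BTBR vehicle points lie above all others for Slc25a4, Slc25a14 and Slc25a38 and below all others for Slc25a5, Slc25a23, Slc25a22, Slc25a12, Slc25a44 and Slc25a39.

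All 3 uncoupling protein-like carriers, named for their similarity to the uncoupling proteins, were called higher in BTBR under vehicle. Among all genes tested, 22.3% were called higher there. Slc25a27 was not called with scaling that left out the mitochondrial genes (log2 difference 0.28) or after quantile normalization (0.382, adjusted p = 0.0554). Slc25a14 (chrX:48623413-48662294, + strand) read 17.5, 17.1 and 17.5 FPKM in C57 vehicle and 17.2, 16.8 and 22.3 in C57 ASIV. With vehicle the BTBR libraries read 28.96, 37.7 and 33.1 FPKM, and with ASIV they read 18.7, 19.5 and 18.9. BTBR vehicle lay above the other 9 libraries, and the other groups overlapped except that BTBR ASIV lay above C57 vehicle. Its strain difference of 0.89 ± 0.12 (SE), adjusted p = 9.57e-05 was the highest log2 difference among the 39 tested members, with BTBR at 1.92 times the C57 mean. Its difference of -0.77 ± 0.12 (SE), adjusted p = 0.000595 for ASIV in BTBR was the lowest of the 39.

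Slc25a27 (chr17:43641891-43667214, - strand) is the uncoupling protein-like carrier most restricted to the brain. It read 8.78, 7.57 and 6.85 FPKM in C57 vehicle and 7.22, 7.96 and 7.71 in C57 ASIV. In BTBR it read 10.9, 9.79 and 10.8 FPKM with vehicle and 11.5, 6.93 and 7.87 with ASIV. All 3 BTBR vehicle libraries lay above both C57 groups, while BTBR ASIV replicate 1 lay above all BTBR vehicle libraries. The strain difference under vehicle was 0.40 ± 0.14 (SE), adjusted p = 0.0385, a call lost without BTBR vehicle replicate 1 or 3, C57 ASIV replicate 2, or C57 vehicle replicate 2 or 3 (log2 difference 0.33 to 0.404, adjusted p = 0.0506 to 0.135). Its log2 difference for ASIV in BTBR, -0.26, did not pass (adjusted p = 0.187), but without BTBR ASIV replicate 1 it was -0.456 with an adjusted p of 0.0131.

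Slc25a30 (chr14:75760117-75787037, - strand) was lower in level, at 1.84, 1.93 and 1.6 FPKM in C57 vehicle and 2.03, 2.12 and 1.89 in C57 ASIV. The BTBR libraries read 2.66, 2.57 and 2.68 FPKM with vehicle and 2.01, 2.08 and 2.56 with ASIV. BTBR vehicle lay above the other 9 libraries, and the strain difference under vehicle was 0.38 ± 0.09 (SE), adjusted p = 0.00609. For ASIV in BTBR the log2 difference was -0.18 (adjusted p = 0.165), which did not pass.

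Of the carriers of di- and tricarboxylates, Slc25a11 was called and Slc25a1 and Slc25a10 were not. Slc25a11 (chr11:70644196-70647479, - strand) exchanges oxoglutarate for malate and works with Slc25a12 in the malate/aspartate shuttle. It read 49.9, 47.1 and 51.1 FPKM in C57 vehicle and 50.7, 47.9 and 56.8 in C57 ASIV. Its BTBR levels were 54.9, 66.7 and 61.8 FPKM with vehicle and 48.04, 47.5 and 54.1 with ASIV. All 3 BTBR vehicle libraries lay above C57 vehicle and BTBR ASIV, while their range overlapped that of C57 ASIV. The strain difference under vehicle was 0.30 ± 0.10 (SE), adjusted p = 0.0293, and the difference for ASIV in BTBR was -0.29 ± 0.10 (SE), adjusted p = 0.0491. The first call was lost without BTBR vehicle replicate 2 or 3 or any 1 of the C57 vehicle libraries (log2 difference 0.235 to 0.325, adjusted p = 0.0509 to 0.105). The second was lost in 14 of 23 alternative settings, among them the omission of any 1 library other than BTBR vehicle replicate 1, BTBR ASIV replicate 3 and C57 ASIV replicate 3 (log2 difference -0.221 to -0.285, adjusted p = 0.0571 to 0.137). Slc25a11 shares 8.92% of its exon bases with the opposite-strand gene Rnf167, and the strand of counting is not given in the sources used here. The shuttle carriers Slc25a12 and Slc25a11 had differences of opposite sign in both comparisons.

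Slc25a1 (chr16:17925223-17928219, - strand), which exports citrate for the synthesis of fatty acids and sterols, read 15.7, 16.4 and 19.04 FPKM in C57 vehicle and 16.1, 14.4 and 18.1 in C57 ASIV. BTBR levels were 17.7, 14.01 and 16.7 FPKM with vehicle and 18.8, 15.9 and 17.6 with ASIV. All 4 groups overlapped, with a log2 difference of -0.08 between the strains under vehicle (adjusted p = 0.619) that was 0.000625 without C57 vehicle replicate 3 and 0.0152 without BTBR vehicle replicate 2. Slc25a10, the dicarboxylate carrier, had log2 differences of -0.28 and 0.26 in the same comparisons. It read 5.65, 2.69 and 4.87 FPKM in BTBR vehicle, a wide spread for 3 libraries.

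The carriers of other nucleotides and cofactors numbered 9, all tested, of which 2 were higher in BTBR under vehicle, 3 were lower with ASIV in BTBR, and none was called in the opposite directions. Among all genes tested, 43.1% were called in the first comparison and 29.1% in the second. Slc25a26 (chr6:94500331-94604672, + strand), the carrier of S-adenosylmethionine, the methyl donor, read 3.36, 3.29 and 3.15 FPKM in C57 vehicle and 3.32, 3.19 and 3.68 in C57 ASIV. In BTBR it read 4.1, 4.01 and 4.4 FPKM with vehicle and 3.04, 2.95 and 3.51 with ASIV. All 3 BTBR vehicle libraries lay above the other 9 libraries. The log2 difference between the strains under vehicle was 0.28 ± 0.09 (SE), adjusted p = 0.022, a call lost without BTBR vehicle replicate 3 or C57 vehicle replicate 2 or 3 (log2 difference 0.246 to 0.282, adjusted p = 0.0574 to 0.0701). For ASIV in BTBR it was -0.31 ± 0.09 (SE), adjusted p = 0.0179, lost without BTBR ASIV replicate 1 or 2 or BTBR vehicle replicate 3 (log2 difference -0.277 to -0.292, adjusted p = 0.0542 to 0.0647).

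Slc25a33 (chr4:149744036-149774277, - strand), a carrier of pyrimidine nucleotides, read 12.2, 12.7 and 14.6 FPKM in C57 vehicle and 11.3, 13.04 and 11.5 in C57 ASIV. The BTBR libraries read 14.3, 15.2 and 16.1 FPKM with vehicle and 13.1, 10.2 and 12.8 with ASIV. BTBR vehicle lay above BTBR ASIV and overlapped C57 vehicle. Slc25a33 fell with ASIV in BTBR (log2 difference -0.33 ± 0.11 (SE), adjusted p = 0.0379). That call was lost in 8 of 23 alternative settings. It was lost without BTBR ASIV replicate 2, BTBR vehicle replicate 2 or 3, or C57 vehicle replicate 2 (log2 difference -0.221 to -0.328, adjusted p = 0.0535 to 0.15). It was also lost with TPM scaling (adjusted p = 0.058), quantile normalization (0.0735), scaling without the mitochondrial genes (0.263) and only the libraries compared (0.106). Slc25a33 shares 14.9% of its exon bases with the antisense gene Gm13068, which is not in the table. The members that passed in neither comparison were Slc25a36, the other pyrimidine nucleotide carrier, Slc25a32, which carries folate and FAD, Slc25a51, which carries NAD+, Slc25a42, which carries coenzyme A, Slc25a16, and Slc25a17, which belongs to the peroxisome. Their log2 differences ran from -0.08 (Slc25a42) to 0.29 (Slc25a32) between the strains under vehicle and from -0.18 (Slc25a17) to 0.18 (Slc25a51) for ASIV in BTBR.

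Of the iron carriers, Slc25a37 (chr14:69241848-69285112, - strand), which supplies mitochondria with iron for heme and iron-sulfur clusters, was lower in BTBR under vehicle. It read 4.37, 4.62 and 4.72 FPKM in C57 vehicle and 3.8, 4.02 and 3.86 in C57 ASIV. Its BTBR levels were 3.54, 2.68 and 2.27 FPKM with vehicle and 3.69, 4.21 and 2.87 with ASIV. BTBR vehicle lay below both C57 groups and overlapped BTBR ASIV. The strain difference was -0.55 ± 0.13 (SE), adjusted p = 0.00467, and that for ASIV in BTBR was 0.26 (adjusted p = 0.147). Slc25a28, the second iron carrier, read 22.8, 17.3 and 30.9 FPKM in BTBR vehicle and passed in neither comparison (log2 difference 0.12 and -0.01). Slc25a37 is abundant in erythroid cells. The erythroid markers summed to 87.51 to 170.2 FPKM in C57 vehicle, 88.57 to 141.7 in C57 ASIV, 41.59 to 140.7 in BTBR vehicle and 38.89 to 99.26 in BTBR ASIV. Between the strains under vehicle, 1 of 4 tested was called lower, against 20.8% of all genes tested. The part of the erythroid markers in the difference of Slc25a37 was not tested.

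Slc25a39 (chr11:102402985-102407946, - strand), which brings glutathione into mitochondria, read 20.1, 22.4 and 23.8 FPKM in C57 vehicle and 18.97, 20.2 and 20.6 in C57 ASIV. BTBR levels were 17.9, 13.7 and 18.7 FPKM with vehicle and 21.8, 21.4 and 20.9 with ASIV. BTBR vehicle lay below the other 9 libraries, by a narrow gap to C57 ASIV. The strain difference under vehicle was -0.39 ± 0.11 (SE), adjusted p = 0.0129, at -0.258 without BTBR vehicle replicate 2 and lost without C57 vehicle replicate 3 (-0.336, adjusted p = 0.0555). For ASIV in BTBR it was 0.34 ± 0.11 (SE), adjusted p = 0.0332, a call lost without any 1 of the BTBR ASIV libraries or BTBR vehicle replicate 2 (log2 difference 0.213 to 0.358, adjusted p = 0.0652 to 0.0973). Its relative Slc25a40 read a mean of 1.08 FPKM in C57 vehicle against 1.07 in BTBR vehicle.

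Slc25a20, the carnitine/acylcarnitine carrier of fatty acid oxidation, passed in no comparison and read 2.02, 2.4, 2.46 and 2.9 FPKM in C57 vehicle, C57 ASIV, BTBR vehicle and BTBR ASIV. Slc25a46, a family member of the outer membrane linked to mitochondrial dynamics, read 17.6, 18.5, 17.4 and 15.9 FPKM in the same order and passed in none either. Of the 5 members without a role assigned here (Slc25a34, Slc25a35, Slc25a45, Slc25a47 and Slc25a53), only Slc25a47 was called, and only between the strains under vehicle. Slc25a47 read 1.33, 0.998 and 1.38 FPKM in C57 vehicle and 1.18, 1.16 and 1.06 in C57 ASIV. Its BTBR levels were 1.98, 1.86 and 1.86 FPKM with vehicle and 1.56, 1.09 and 1.63 with ASIV. All 3 BTBR vehicle libraries lay above the other 9 libraries, and the strain difference was 0.38 ± 0.11 (SE), adjusted p = 0.0168, lost without C57 vehicle replicate 2 (0.302, adjusted p = 0.0802). A pseudocount of 1 understates the change of genes at such low levels, and voom gave 0.63. Slc25a35 shares 31.3% of its exon bases with the opposite-strand gene Rangrf, so its level is uncertain.

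Between the strains under ASIV, 0 of 39 members passed with limma, against 2.53% of all genes tested (1.31% higher and 1.22% lower). At an unadjusted p under 0.05 there were 4 of 39 members, against 2614 of the 13586 genes tested. For the members, voom on fragments recovered from FPKM also called 0. The groups did not overlap in 7 members, against 26.2% of all genes. Slc25a22 (-0.36), Slc25a18 (0.51), Slc25a12 (-0.22) and Slc25a5 (-0.27) were those 4, given here with their log2 differences. Slc25a22 and Slc25a12 were lower in all 3 BTBR ASIV libraries than in all 3 C57 ASIV libraries, and Slc25a18 was higher. A p that misses the threshold does not show that the strains were alike under ASIV.

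In C57 mice, 0 of 39 members passed between ASIV and vehicle, as did 0.0% of the genes tested, where 417 genes and 2 members had an unadjusted p under 0.05 and voom called 0 genes. The 2 members were Slc25a23 (-0.26) and Slc25a18 (-0.35), and the groups did not overlap in 8 members, against 13.1% of all genes. Beside Slc25a18, all 7 astrocyte markers had a lower mean in C57 ASIV than in C57 vehicle, with log2 differences from -0.309 (Aldoc) to -0.0456 (Gja1), and none of them passed. This was not particular to astrocytes. The tested markers of microglia (-0.262 to -0.0956), endothelial cells (-0.207 to -0.0542) and erythroid cells (-0.407 to -0.241) were all negative as well. So were those of oligodendrocyte precursors, Pdgfra (-0.107) and Cspg4 (-0.19). Those of excitatory neurons had both signs, from -0.411 (Camk2a) to 0.24 (Neurod6). Those of general neurons and oligodendrocytes had both signs too, and those of inhibitory neurons were all positive. The part of these markers in the value of Slc25a18 was not tested. The variance within a group, averaged over all genes tested on the log2 scale, was 0.0226 in C57 vehicle, 0.0376 in C57 ASIV, 0.0642 in BTBR vehicle, and 0.05005 with ASIV in BTBR, so the BTBR groups were the more variable.

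The difference between the strains in their response to ASIV was tested by the interaction of strain and treatment. It passed for 5 of 39 members, or 12.8%, against 14.3% of all genes tested (6.91% higher and 7.36% lower). Slc25a23 (0.79 ± 0.15 (SE), adjusted p = 0.00619) and Slc25a5 (0.65 ± 0.18 (SE), adjusted p = 0.03) responded more upward in BTBR than in C57. Slc25a14 (-0.86 ± 0.16 (SE), adjusted p = 0.00587), Slc25a4 (-0.70 ± 0.15 (SE), adjusted p = 0.00885) and Slc25a38 (-0.52 ± 0.14 (SE), adjusted p = 0.0249) responded more downward. The split of 2 higher and 3 lower became 6 and 2 with scaling to the total without mitochondrial genes and 6 and 3 after quantile normalization, where the interaction of Slc25a4 was -0.468. The count was 3 without any 1 of the C57 vehicle libraries, C57 ASIV replicate 1 or 2, or BTBR ASIV replicate 2, and 8 without C57 ASIV replicate 3 or BTBR vehicle replicate 1. The call of Slc25a5 was lost without any 1 of the C57 vehicle libraries, C57 ASIV replicate 1 or 2, or BTBR ASIV replicate 2 or 3 (0.562 to 0.689, adjusted p = 0.0508 to 0.0751). That of Slc25a38 was lost without any 1 of the C57 vehicle libraries, C57 ASIV replicate 1 or 2, or BTBR ASIV replicate 1 or 2 (-0.462 to -0.528, adjusted p = 0.0528 to 0.0607), and with scaling that left out the mitochondrial genes (-0.411, adjusted p = 0.081). The interactions of Slc25a14, Slc25a23 and Slc25a4 passed in all 22 alternative settings.

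Carriers of the family under other symbols and other mitochondrial transporters were read from the same fit. Of 4 tested (Ucp2, Ucp3, Mtch1 and Mtch2), Ucp2, an uncoupling protein, was called higher with ASIV in BTBR, at a mean of 6.94 FPKM against 2.68 with vehicle, a log2 difference of 1.17 ± 0.21 (SE), adjusted p = 0.00178 (limma). It was called in all 23 alternative settings. Ucp2 was also called between the strains under ASIV (log2 difference 1.00, adjusted p = 0.028) and for the interaction (1.26, adjusted p = 0.016). The first of these calls was lost without BTBR ASIV replicate 1 or 3 or any 1 of the C57 ASIV libraries (0.932 to 1.04, adjusted p = 0.0528 to 0.116). Mtch1, an outer membrane protein, was called higher between the strains under vehicle (0.336, adjusted p = 0.0121), a call lost with scaling that left out the mitochondrial genes and without C57 vehicle replicate 2 (0.2 to 0.301, adjusted p = 0.0566 to 0.0832). Ucp2 (-0.264), Ucp3 (-0.0336) and Mtch2 (0.0812) did not pass in that comparison. Of all genes tested, 43.1% were called there and 29.1% for ASIV in BTBR. Between the strains under ASIV it was 2.53%, and for the interaction 14.3%. Of 22 tested other transporters of mitochondrial membranes, 7 were higher and 4 lower in BTBR under vehicle, and 3 were higher and 7 lower with ASIV in BTBR, where 43.1% and 29.1% of all genes tested were called. Scaling without the mitochondrial genes gave 4 higher and 5 lower for the first and 3 higher and 4 lower for the second. The mitochondrial pyruvate carrier has a pair of subunits, and they split as the translocases did. Mpc1 had log2 differences of -0.752 and 0.497 in these comparisons and Mpc2 of 0.736 and -0.737. Vdac3, a channel of the outer membrane, had 0.717 and -0.605, and Mcu, the pore of the calcium uniporter, had -0.661 and 0.378. Smdt1, a small regulator of that uniporter, had 0.745 and -0.545. These 5 genes passed in both comparisons in every alternative setting that tested them.

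Carriers reach the inner membrane through small chaperones of the intermembrane space and the translocase that inserts them. Of 10 tested import genes, 4 were higher and 2 lower in BTBR under vehicle, and 2 were higher and 2 lower with ASIV in BTBR, beside the same 43.1% and 29.1% of all genes. With scaling that left out the mitochondrial genes the counts for carrier import were 3 and 3, and 3 and 2. Timm13 (log2 difference 0.878 and -0.793) and Timm8a1 (0.8 and -0.761), which together form one of these chaperones, had the same signs. Timm10b, which docks on the inserting translocase, had -0.442 and 0.53. Timm8b, at a mean of 84.7 FPKM in C57 vehicle against 5.57 for Timm8a1, was called at -0.427 and 0.512. Timm13, Timm8a1 and Timm10b passed in both comparisons in every alternative setting that tested them. The strain call of Timm8b was lost without BTBR vehicle replicate 2 or C57 vehicle replicate 3. Of 14 enzymes fed by the carriers, 5 were higher and 3 lower in BTBR under vehicle, and 2 were higher and 4 lower with ASIV in BTBR, against 2 and 3, and 4 and 0, when scaled without the mitochondrial genes. The shares called over all genes were again 43.1% and 29.1%. Cs, citrate synthase, had log2 differences of -0.564 and 0.397, both called under every alternative setting run. Glud1, glutamate dehydrogenase, had 0.479 under vehicle and -0.211 with ASIV in BTBR, of which the second did not pass.

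Promoters are shown for the members with the largest differences, Slc25a14 and Slc25a4, which were higher in BTBR vehicle, and Slc25a5 and Slc25a22, which were lower. RefSeq (GRCm38.p6) gave 42 promoters for 32 of the members, each of 300 bases around a start. For Slc25a14 and Slc25a22, which have 3 listed starts each, the first listed is printed. Positions are chrX:48623198-48623497 (+ strand) for Slc25a14, chr8:46211013-46211312 (- strand) for Slc25a4, chrX:36795347-36795646 (+ strand) for Slc25a5 and chr7:141437825-141438124 (- strand) for Slc25a22. Capitals mark matches to the motifs searched on both strands.
Slc25a14: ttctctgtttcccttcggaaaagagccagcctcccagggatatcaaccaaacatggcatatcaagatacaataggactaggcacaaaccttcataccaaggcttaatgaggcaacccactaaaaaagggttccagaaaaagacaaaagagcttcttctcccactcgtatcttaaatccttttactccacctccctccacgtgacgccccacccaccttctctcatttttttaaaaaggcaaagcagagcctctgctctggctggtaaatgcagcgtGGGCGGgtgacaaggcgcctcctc
Slc25a4: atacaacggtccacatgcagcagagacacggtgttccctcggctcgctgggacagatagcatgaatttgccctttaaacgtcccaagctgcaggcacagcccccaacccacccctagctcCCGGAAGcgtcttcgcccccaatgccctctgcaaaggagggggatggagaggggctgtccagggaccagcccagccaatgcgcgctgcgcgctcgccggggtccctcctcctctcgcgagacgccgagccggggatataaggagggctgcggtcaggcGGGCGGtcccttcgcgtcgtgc
Slc25a5: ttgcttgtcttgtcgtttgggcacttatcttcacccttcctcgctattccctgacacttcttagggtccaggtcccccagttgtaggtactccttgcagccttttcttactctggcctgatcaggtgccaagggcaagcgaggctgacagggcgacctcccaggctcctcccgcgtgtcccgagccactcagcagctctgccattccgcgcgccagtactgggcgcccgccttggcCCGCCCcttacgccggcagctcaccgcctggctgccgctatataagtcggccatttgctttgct
Slc25a22: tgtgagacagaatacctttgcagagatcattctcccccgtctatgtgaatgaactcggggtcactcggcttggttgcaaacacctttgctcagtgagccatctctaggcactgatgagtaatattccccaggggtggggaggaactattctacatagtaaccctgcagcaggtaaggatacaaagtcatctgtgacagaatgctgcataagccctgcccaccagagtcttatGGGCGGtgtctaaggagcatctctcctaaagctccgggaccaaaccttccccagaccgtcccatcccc
The motifs were the SP1 motif GGGCGG, the GABPA motif CCGGAAG, the NRF1 motif and the ERR motif TCAAGGTCA, of which the last 3 stand for factors known to act on nuclear genes of mitochondrial proteins. GGGCGG was in 83.3% of the members' promoters and 35.7% of all 32851 promoters listed. The listed promoters were not matched to those of the members in base composition or gene class, and no share was tested. CCGGAAG was in 14.3%, against 8.86% of all, and of the printed promoters it occurred in that of Slc25a4. The NRF1 motif was in 1 member promoter, that of Slc25a3, or 2.38% against 4.6%, and TCAAGGTCA was in none, against 0.423%. Each of the 4 printed promoters holds 1 match to GGGCGG, on either strand, whether its gene was higher or lower in BTBR vehicle. These matches describe the letters of the mm10 reference, which comes from a C57 substrain, and not the BTBR genome.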

How the data were processed

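Total RNA of the mPFC was sequenced in 12 mouse libraries, 4 groups of 3. Reads were aligned with HISAT2 2.0.5 to mm10, per the submitters' processing notes. The authors deposited 1 table of FPKM per gene and library. The counting tool is not given in the sources used here, nor are its annotation, strand setting or filter, and the table has 0 value columns beyond the 12 libraries.

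Gene names, exon lengths and classes came from GENCODE M21. Values were tested with limma 3.58.1 (R 4.3.3) on log2(FPKM + 1), which understates changes of low genes, with 1 fit of the 4 groups, 8 residual degrees of freedom, a filter of FPKM 1 in 3 libraries and Benjamini-Hochberg adjustment over 13586 genes. Adjusted p-values are from that fit unless another tool is named. Low values were steps of whole fragments: 97.6 to 98.0% of values under 50 fragments came out whole within 0.02. From these steps each library's depth was taken, and limma's voom on the recovered fragments called 5815 genes between the strains under vehicle, 403 under ASIV, 4070 for ASIV in BTBR, 0 for ASIV in C57 and 2014 for the interaction. Ratios within a library were compared by exact two-sided permutation tests. Scripts used Python 3.11.15, numpy 2.4.6, pandas 2.3.3, scipy 1.17.1 and matplotlib 3.10.9, and were tested on simulated data.

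The members, role groups and gene lists were chosen with earlier results of these data known. Values in every library are printed for Slc25a1, Slc25a3, Slc25a4, Slc25a5, Slc25a11, Slc25a12, Slc25a22 and Slc25a27 and, for each comparison, for up to 8 higher and 8 lower called members with the largest difference. Results of 1 member, which is part of all counts and sums, are not reported here. A few others with partial values were picked after their values were seen. Alternatives covered the pseudocount, filter, scaling, the libraries in the fit, voom, a replicate block and each library left out. The main design has no replicate block, since same-numbered libraries did not deviate together in every pair.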

Additional observations from a re-analysis of the deposited data

Results flagged for a closer look

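The response to ASIV differed between the strains in 5 members, by limma's test of the interaction of strain and treatment adjusted over all genes tested. That is 12.8% of the 39 tested members, against 14.3% of all genes, so the number is no result about the family. The interaction is the log2 difference of ASIV from vehicle in BTBR minus that in C57. It was -0.86 for Slc25a14, -0.70 for Slc25a4 and -0.52 for Slc25a38, which fell with ASIV in BTBR. It was 0.79 for Slc25a23 and 0.65 for Slc25a5, which rose. In C57 mice none of these 5 passed between ASIV and vehicle.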

How the results depend on the processing

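Of the values of single members under alternative settings, 798 kept their direction and side of the threshold, 86 lost their call, 1 gained one and 2 reversed. The reversals were those of Slc25a1 between the strains under vehicle, whose difference was 0.000625 without C57 vehicle replicate 3 and 0.0152 without BTBR vehicle replicate 2. With 1 library left out it ran from -0.143 to 0.0152. The gain was Slc25a27 for ASIV in BTBR without BTBR ASIV replicate 1 (-0.456, adjusted p = 0.0131). Of the counts and ratios, 357 stayed within the margin of their main value and 13 did not. For ASIV in BTBR the count of called members was 8 with only the 6 libraries compared, and 9 to 15 with 1 library left out. For the interaction it was 10 with a filter of FPKM 5, which left 27 members tested, 9 after quantile normalization, 8 with scaling without mitochondrial genes, and 3 to 8 with 1 library left out. Between the strains under vehicle it was 12 to 18 with 1 library left out. The cause was not tested. In all 23 alternatives Slc25a4, Slc25a5, Slc25a12, Slc25a14, Slc25a22, Slc25a23, Slc25a38 and Slc25a44 stayed called between the strains under vehicle and for ASIV in BTBR. With the replicate number as a block, the counts were 16 under vehicle, 0 under ASIV, 13 for ASIV in BTBR, 0 for ASIV in C57 and 5 for the interaction. The libraries share only a number: deviations of same-numbered libraries correlated between -0.172 and 0.279, with 8 of 18 pairs over 0.1, and those of other pairs between -0.37 and 0.225, with 7 of 36. Depth limits low members such as Slc25a21, with 2 to 16 fragments in a library. The planned search for a protein motif was not run.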

Other observations

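Gene length was looked at after the data had been seen. Under vehicle, the median log2 difference between the strains over all genes tested was 0.05 among the genes with the shortest exon length, 0.02 among those of middle length and -0.02 among the longest, in groups of 4524, 4522 and 4523 genes. For the members it was 0.09 in 14 short genes, 0.09 in 16 of middle length and -0.03 in 9 long ones. For ASIV in BTBR the medians over all genes were -0.04, -0.02 and 0.02, and those of the members were -0.03, -0.09 and 0.16.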
